A study of Mus musculus with 8 samples.

Results

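Of the 55487 genes in each library's table, 10 interleukin genes that dendritic cells are known to express were taken by name: Il12a, Il12b, Il23a, Il27, Ebi3, Il6, Il10, Il1b, Il15 and Il18. All 10 were found, and 9 of them had enough counts to be tested. Il12a was too low. The libraries came from conventional dendritic cells of 2 kinds, cDC1 and cDC2, purified by sorting from spleens of untreated C57BL/6 mice. There were 4 groups with 2 libraries each: cDC1 of wild-type mice, cDC2 of wild-type mice, cDC1 of Zeb2 -165(d1+2+3) mice, called the Zeb2 mutant here, and cDC2 of Irf8 +32-/- mice, called the Irf8 mutant here. Both genotype names refer to a regulatory region outside the gene and not to its coding sequence. The Zeb2 mutant was profiled in cDC1 only and the Irf8 mutant in cDC2 only. The mice's age and sex, the number of animals in a library and the sort gates are not stated in the labels.

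Interleukins are secreted signals between cells of the immune system. Several of those from dendritic cells work as pairs of subunits: p40 (Il12b) joins p35 (Il12a) to make IL-12, which drives interferon-gamma responses of T cells and NK cells, or p19 (Il23a) to make IL-23, which sustains IL-17 responses, and Ebi3 joins p28 (Il27) to make IL-27. IL-1 beta (Il1b) and IL-18 (Il18) are made as inactive precursors that inflammasomes and caspase-1 mature, IL-15 (Il15) is presented on the cell surface to NK cells and memory CD8 T cells, IL-6 (Il6) acts on T cell differentiation and IL-10 (Il10) restrains inflammation. cDC1 are known as a main source of IL-12 in mice, and cDC2 as a source of IL-23.

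The promoter windows of Il12b and Il1b are shown as those of the most abundant members, whose means went in opposite directions between the cell types. For Il1b that difference was not called in wild type. The window of Il6 is shown because it held the most motif matches. The sequences are the 250 bases before the annotated start from RefSeq (GRCm38.p6), written 5′ to 3′ on the gene's strand: chr11:44399813-44400062 (+) for Il12b, chr2:129371140-129371389 (-) for Il1b and chr5:30012864-30013113 (+) for Il6. Capitals mark matches to the motifs named after the sequences.
Il12b: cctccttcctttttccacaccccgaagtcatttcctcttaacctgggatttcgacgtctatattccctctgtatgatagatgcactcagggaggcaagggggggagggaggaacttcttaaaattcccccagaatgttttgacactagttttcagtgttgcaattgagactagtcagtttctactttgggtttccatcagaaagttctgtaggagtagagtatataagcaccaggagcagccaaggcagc
Il1b: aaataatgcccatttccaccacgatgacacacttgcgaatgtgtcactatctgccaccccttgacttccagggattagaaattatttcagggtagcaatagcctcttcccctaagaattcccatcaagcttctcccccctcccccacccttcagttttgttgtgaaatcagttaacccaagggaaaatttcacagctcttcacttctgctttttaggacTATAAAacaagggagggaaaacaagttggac
Il6: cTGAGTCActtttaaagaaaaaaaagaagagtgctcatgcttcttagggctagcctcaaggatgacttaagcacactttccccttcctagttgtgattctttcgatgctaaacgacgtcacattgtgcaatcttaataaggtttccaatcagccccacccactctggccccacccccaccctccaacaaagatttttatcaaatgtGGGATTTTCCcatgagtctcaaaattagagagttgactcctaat

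Promoter windows matched for 6 of the 10 members: Il12a, Il12b, Ebi3, Il6, Il1b and Il18. The motifs were searched on both strands: an IRF element made of GAAA, any 2 bases and GAAA (in 2.98% of all 32851 windows), an ETS-IRF element made of GGAA, any 2 bases and GAAA (2.30%), an AP-1 element TGANTCA (6.75%), a kappaB-like element made of GGG, any 3 bases, TT, any base and C (12.3%) and a TATA box TATAAA (12.4%). The IRF and ETS-IRF motifs can overlap each other. Il1b held the TATA box at bases -31 to -26 from the start. Il6 held the AP-1 element at the far end of its window, ending at -243, and the kappaB-like element at -44 to -35, and Il18 the TATA box on the opposite strand at -175 to -170. None of these letters occurred in the windows of Il12b, Ebi3 or Il12a. A match describes letters and does not show a bound site.

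The libraries held 49380686 to 58611821 counts. The sorted cells carried the markers of their labels. Summed over 8 cDC1 markers (Xcr1, Clec9a, Irf8, Batf3, Cadm1, Itgae, Tlr3, Cd8a), the level was 6129 to 6679 CPM in the cDC1 libraries and 204 to 238 CPM in the cDC2 libraries. Summed over 8 cDC2 markers (among them Sirpa, Cd4 and Irf4), it was 37.7 to 45.4 CPM in cDC1 and 2109 to 2511 CPM in cDC2. All 8 markers of each kind passed the test in the direction of their label. Neither Irf8 nor Zeb2 passed the test in the mutant named for it: the cDC2 held 115 ± 15.9 CPM of Irf8 in wild type against 133 ± 18.9 CPM in the Irf8 mutant, and the cDC1 2.10 ± 0.00934 CPM of Zeb2 against 2.89 ± 0.922 CPM in the Zeb2 mutant (SD, n = 2). Since the labels name enhancers, these levels do not check the genotypes. Of the wild-type cDC1 libraries, replicate 2 held more Il1b and Il12b than replicate 3, and values that rest on 1 of them are given with and without it. CPM here are counts scaled by library size after TMM normalisation, and a call is an adjusted p under 0.05 by edgeR's quasi-likelihood test over 20631 genes.

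Compared per kilobase of exon, which allows genes to be set against each other, the interleukins kept 1 order in all 4 groups: Il1b, Il12b, Il18, Ebi3, Il15, Il6, Il27, Il10, Il23a and Il12a. Il1b and Il12b were far above the rest in cDC1. By this level Il1b ranked 26 and 32 among the 20631 tested genes in cDC1 (wild type and Zeb2 mutant) and 15 and 14 in cDC2 (wild type and Irf8 mutant). Il12b ranked 124 and 120 in the cDC1 groups and 1678 and 601 in the cDC2 groups. Neighbours in this order did not all part beyond their spread. In wild-type cDC1 Il18 was at 20.1 ± 4.62 and Ebi3 at 19.9 ± 1.58 CPM per kilobase, and in wild-type cDC2 at 14.7 ± 1.48 and 14.4 ± 0.723. Il6 and Il27 overlapped too in wild-type cDC1, with 1.20 ± 0.584 and 0.850 ± 0.0534 CPM per kilobase (SD, n = 2). At the low end counts were few: Il10 had 10 to 61 counts in a library, Il23a 1 to 46 and Il12a 0 to 10.

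**Figure D1:**
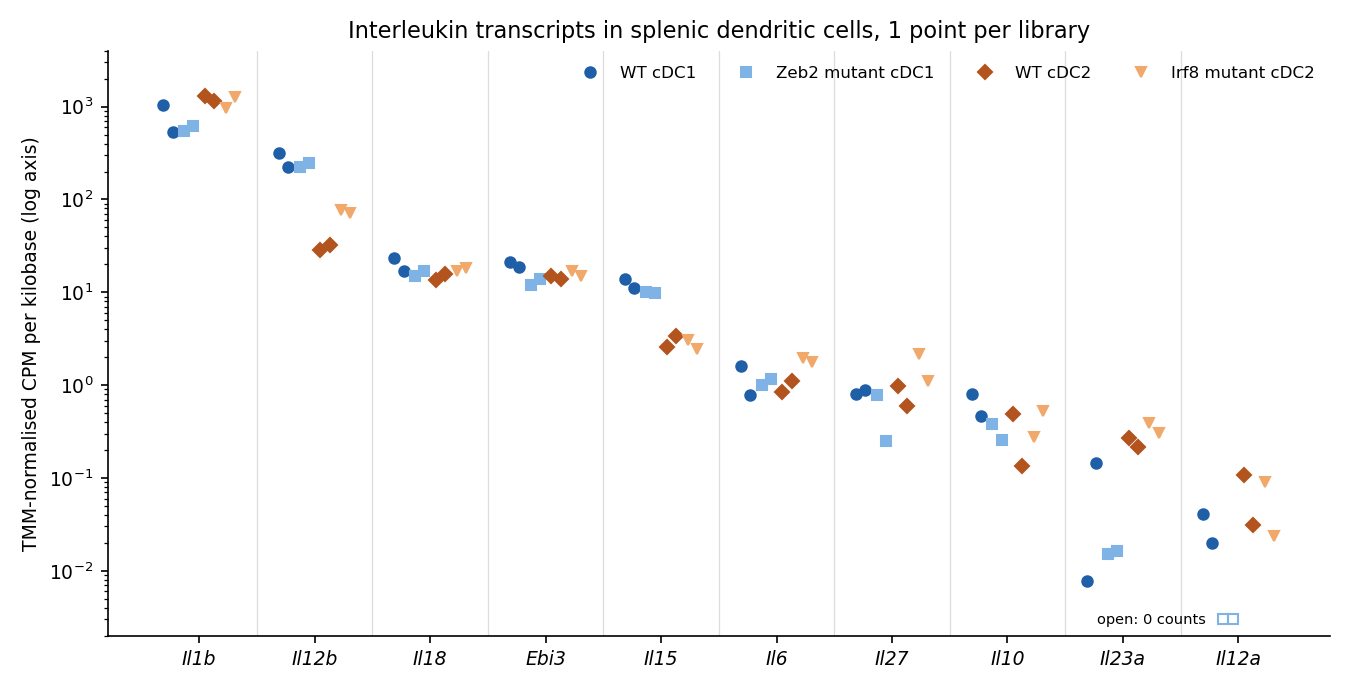
Level of the 10 interleukin genes in each of the 8 libraries, as TMM-normalised CPM per kilobase of exon on a log axis, with 1 point per library and 1 colour and shape per group; open symbols mark 0 counts, drawn at the foot of the axis. Il12b and Il15 sit higher in the cDC1 groups (blue) than in the cDC2 groups (orange), and Il12a and Il23a lie at the low end.

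In wild-type mice, where the comparison asks how the cell types differ, cDC1 held more Il12b and Il15 than cDC2, and no member was called lower. Il12b, the p40 subunit shared by IL-12 and IL-23, was 8.84-fold higher in cDC1, and Il15 4.20-fold higher. These were 2 of 9 tested members called higher, against 14.2% of all tested genes called higher, and 0 called lower, against 15.9% (30.1% in either direction). At an unadjusted p under 0.05, 4 members were higher and 1 lower, and DESeq2 called 2 higher and 1 lower. The median log2 fold change was 0.45 over the 9 members and 0.03 over all tested genes. Log2 fold changes followed gene length here (Spearman's rho -0.27 over 8398 genes, which are not independent). With that trend removed the medians were 0.114 and -0.013. Without wild-type cDC1 replicate 2 they were 0.195 and 0.013. The libraries of the cell types did not overlap for 4 members higher in cDC1 (32.8% of all genes) and for 2 lower (32.1%).

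Il12b (ENSMUSG00000004296, chromosome 11, 44400063 to 44414033, GRCm38) was at 624 and 443 CPM in the wild-type cDC1 libraries and at 56.7 and 63.9 CPM in wild-type cDC2. Every cDC1 library was thus several times above every cDC2 library. The log2 fold change was 3.14 (SE 0.178, 95% interval 2.75 to 3.54, edgeR adjusted p = 6.62e-07). The partners of p40 stayed low. Il12a, the p35 subunit (chromosome 3, 68690644 to 68698547), had 4 and 2 counts in cDC1 and 10 and 3 counts in cDC2, which overlapped. Il23a, the p19 subunit (chromosome 10, 128296139 to 128298752), had 1 and 19 counts in cDC1 and 33 and 27 counts in cDC2. All of the cDC1 values of Il23a lay below the cDC2 values, but they differed widely from each other, and the log2 fold change of -1.64 (SE 0.953) did not pass (edgeR adjusted p = 0.234). Without wild-type cDC1 replicate 3, which held 19 of the 20 counts, the log2 fold change was -4.79 and edgeR's adjusted p 0.00833. Without replicate 2, which held the other count, these were -0.73 and 0.548. It passed in 1 of 14 alternative analyses, so the size of the difference turned on which cDC1 library was kept.

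Per kilobase, Il12b exceeded Il23a 108-fold and 152-fold in the wild-type cDC2 libraries and 1558-fold in wild-type cDC1 replicate 3. Il23a had 1 count in wild-type cDC1 replicate 2, for which no ratio is given. The Il12b level was 269.7-fold that of Il12a in wild-type cDC2 replicate 2 and 7806-fold in wild-type cDC1 replicate 2. Transcripts of the shared subunit were at least 108-fold above those of a partner in every library with more than 3 counts of that partner.

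For the subunits of IL-27, Ebi3 (chromosome 17, 55952640 to 55957022) was at 24.2 and 21.7 CPM in cDC1 and 17.2 and 16.0 CPM in cDC2. The libraries did not overlap, with a log2 fold change of 0.47 (SE 0.173) that missed the threshold (edgeR adjusted p = 0.0673). With the gene length trend removed it was 0.11 (edgeR adjusted p = 0.684). Il27 (chromosome 7, 126589010 to 126594941) had 48 and 53 counts in cDC1 and 55 and 34 in cDC2. Its groups overlapped, with a log2 fold change of 0.11 (95% interval -1.20 to 1.43). Il27 shares part of its locus with Apobr on the opposite strand, which had 2695 to 7368 counts in a library, and Ebi3 with the antisense gene Gm16712, which had 72 to 279. The library kit does not mark strand, so reads of such overlaps cannot be told apart.

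Il1b (ENSMUSG00000027398, chromosome 2, 129364570 to 129371139) was at 1991 and 1019 CPM in wild-type cDC1 and at 2469 and 2190.1 CPM in wild-type cDC2. Both cDC1 libraries lay below both cDC2 libraries, and replicate 2 of cDC1 lay closer to cDC2 than to its own replicate. The log2 fold change of -0.63 (SE 0.261) missed the threshold (edgeR adjusted p = 0.0974). It passed in 4 of 14 alternative analyses, among them DESeq2 (adjusted p = 0.0241). The cDC1 libraries set its size: it was -1.19 without replicate 2 (edgeR adjusted p = 0.000543) and -0.23 without replicate 3 (0.322). The antisense gene Il1bos at the same locus had 81 to 380 counts in a library. Il18 (chromosome 9, 50554827 to 50581840) was at 24.1 and 17.4 CPM in cDC1 and 14.1 and 16.3 CPM in cDC2. Its log2 fold change of 0.45 did not pass (edgeR adjusted p = 0.117). It passed in 1 of 14 alternative analyses, without wild-type cDC1 replicate 3 (0.67, edgeR adjusted p = 0.023), and was 0.20 without replicate 2 (0.545) and 0.067 with the gene length trend removed (0.808). It overlaps Bco2 and Tex12 on the opposite strand, with 479 to 798 and 18 to 54 counts in a library.

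Il15 (ENSMUSG00000031712, chromosome 8, 82331632 to 82403222) was at 31.5 and 25.1 CPM in wild-type cDC1 and at 5.89 and 7.60 CPM in wild-type cDC2. The groups stood well apart, with a log2 fold change of 2.07 (SE 0.213, 95% interval 1.59 to 2.54, edgeR adjusted p = 4.34e-05). Il6 (chromosome 5, 30013114 to 30019981) was at 3.92 and 1.91 CPM in cDC1 and 2.04 and 2.66 CPM in cDC2. Il10 (chromosome 1, 131019845 to 131024974) had 61 and 36 counts in cDC1 and 35 and 10 in cDC2. Neither was called, with log2 fold changes of 0.31 (95% interval -0.51 to 1.13) and 1.03 (-0.54 to 2.60), and the CPM of the groups overlapped for both. In sorted bulk RNA, fewer cells that make a transcript and less of it in each cell cannot be told apart.

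**Figure D2:**
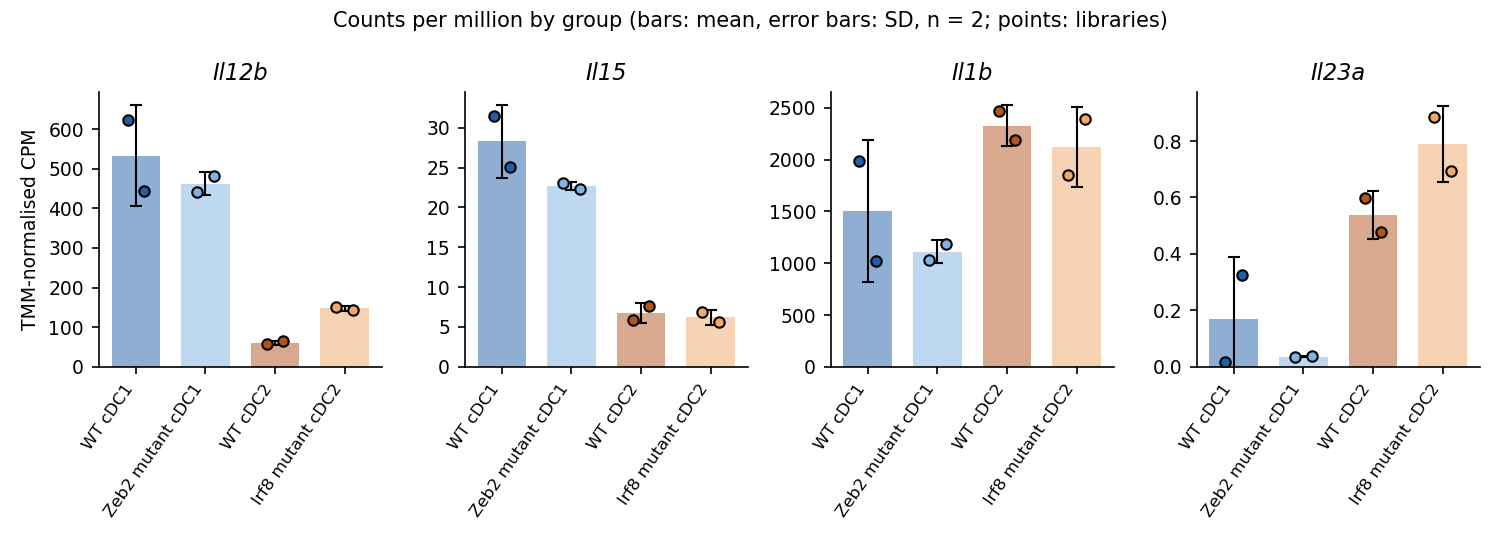
TMM-normalised CPM of the 4 members called in any comparison, with bars for the mean of a group, error bars for the SD (n = 2, the lower end cut at 0 for Il23a) and points for libraries. Il12b and Il15 are higher in both cDC1 groups, the mean of Il1b is lowest in Zeb2 mutant cDC1, and Il12b in Irf8 mutant cDC2 (152 and 142 CPM) lies above wild-type cDC2 (56.7 and 63.9 CPM).

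The cell types were compared once more in the mutants, in 4 libraries that the wild-type comparison did not use, although genotype differs there together with cell type. In Zeb2 mutant cDC1, Il12b and Il15 were again higher than in Irf8 mutant cDC2, and Il1b and Il23a were lower. Of 9 tested members, 2 were called higher (12.8% of all tested genes) and 2 lower (15.0%, and 27.9% in either direction), while DESeq2 called 2 higher and 3 lower. Libraries did not overlap for 2 members higher (32.2% of all genes) and 5 lower (33.6%). The median log2 fold change was -0.35 over the members and -0.02 over all tested genes.

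Il12b was at 441 and 482 CPM in Zeb2 mutant cDC1 and at 152 and 142 CPM in Irf8 mutant cDC2. It was 3.14-fold higher in the cDC1 (log2 fold change 1.65, SE 0.168, edgeR adjusted p = 4.16e-05). Il15 was at 23.1 and 22.3 CPM against 6.87 and 5.56 CPM, 3.65-fold higher (log2 fold change 1.87, SE 0.213, edgeR adjusted p = 9.18e-05). Both kept their call with any 1 library left out.

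Il1b was at 1032 and 1189.9 CPM in Zeb2 mutant cDC1 and at 1848 and 2392 CPM in Irf8 mutant cDC2. It was 1.91-fold lower in the cDC1 (log2 fold change -0.93, SE 0.262, edgeR adjusted p = 0.0228). This call was lost without Zeb2 mutant replicate 2 (edgeR adjusted p = 0.139), Zeb2 mutant replicate 3 (0.0748) or Irf8 mutant replicate 3 (0.153). Il23a had 2 counts in each Zeb2 mutant cDC1 library and 46 and 34 counts in the Irf8 mutant cDC2 libraries. That made it 22.2-fold lower in the cDC1, with an interval of 7.81 to 78.1 that covers counting error only (log2 fold change -4.39, SE 1.13, edgeR adjusted p = 0.0147). Its call was lost without Zeb2 mutant replicate 2 (edgeR adjusted p = 0.0882), Zeb2 mutant replicate 3 (0.0832) or Irf8 mutant replicate 2 (0.0673), where the log2 fold change stayed between -4.43 and -4.20.

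Monocyte and macrophage markers did not all move in 1 direction. Summed over 7 genes (Ly6c2, Ccr2, Csf1r, Fcgr1, Adgre1, Vcan and Cd14), they were at 126 to 173 CPM in the cDC1 libraries and 828 to 1066 CPM in the cDC2 libraries. In wild type, Csf1r (14.8 ± 1.43 CPM in cDC1 against 618 ± 7.82 CPM) and Adgre1 (3.54 ± 0.414 against 215 ± 16.7 CPM) made up most of the cDC2 sum. Of the 7, 4 were called lower in cDC1 of either pair (Csf1r, Fcgr1, Adgre1 and Cd14). In wild type 2 were called higher in cDC1 (Ly6c2 and Ccr2), and in the mutants 1 (Ly6c2). The part of these 7 genes in the levels of Il1b and Il23a was not tested. Il12a had 0 counts in both Zeb2 mutant cDC1 libraries, which allows up to 0.057 CPM in the shallower of them (3 counts, counting error only), and 8 and 2 counts in Irf8 mutant cDC2. The remaining members did not pass: Il27 was at 0.81 and 0.26 against 2.23 and 1.14 CPM (log2 fold change -1.65, edgeR adjusted p = 0.0674), Il6 at 2.42 and 2.84 against 4.77 and 4.32 CPM (-0.79, 0.146), Ebi3 at 13.7 and 16.1 against 19.7 and 17.1 CPM (-0.30, 0.233), Il18 at 15.5 and 17.5 against 17.3 and 19.0 CPM (-0.14, 0.665) and Il10 at 0.50 and 0.33 against 0.37 and 0.69 CPM (-0.35, 0.773). Il27 passed in 4 of 14 alternative analyses: with no filter (edgeR adjusted p = 0.0463), with a replicate block (0.0434), by DESeq2 (0.0495) and without Zeb2 mutant replicate 2 (log2 fold change -2.70, 0.0316). Its log2 fold change was -1.06 without Zeb2 mutant replicate 3 (edgeR adjusted p = 0.312) and -1.09 without Irf8 mutant replicate 2 (0.35). Ebi3 passed in 1 of 14, with the length trend removed (-0.56, edgeR adjusted p = 0.0397).

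In Irf8 mutant cDC2, compared with wild-type cDC2 to ask what the altered Irf8 enhancer leaves in these cells, Il12b was 2.44-fold higher, and no member passed edgeR's threshold. The 4 libraries did not overlap: the mutant ones held 152 and 142 CPM, the wild-type ones 56.7 and 63.9 CPM. The log2 fold change was 1.29 (SE 0.167, 95% interval 0.92 to 1.66), and its unadjusted p of 1.45e-05 was the fifth smallest of 20631 genes, at an adjusted p of 0.0507. It passed in 7 of 14 alternative analyses, whose adjusted p ran from 3.32e-12 to 0.628, and DESeq2's was 2.63e-09. The main fit shares its spread over all 8 libraries. With only the compared groups in the fit, edgeR's adjusted p was 0.00408 (log2 fold change 1.28, SE 0.114). With 1 of the 4 compared libraries left out, which leaves 1 library in a group, Il12b did not pass. The fold hardly moved in these fits, with log2 values from 1.20 to 1.35. It was 1.29 without wild-type cDC1 replicate 2 or 3, which lie outside this comparison. The mutant level stayed 3.14-fold below Zeb2 mutant cDC1.

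Over all members, edgeR called 0 of 9, as it called 0% of all tested genes. At an unadjusted p under 0.05, 2 members were higher (Il12b and Il6) and 0 lower, and DESeq2 called 1 higher. The mutant libraries lay above wild type without overlap for 5 members (19.6% of all genes) and below for 0 (19.7%). The median log2 fold change was 0.38 over the members and 0.01 over all tested genes. Il6 was at 4.77 and 4.32 CPM against 2.04 and 2.66 CPM in wild type (log2 fold change 0.95, SE 0.370, 95% interval 0.13 to 1.77, edgeR adjusted p = 0.717). Il27 had 116 and 56 counts against 55 and 34, also without overlap (1.07, 95% interval -0.24 to 2.39, edgeR adjusted p = 0.842). Il1b, at 1848 and 2392 against 2469 and 2190.1 CPM, overlapped (-0.14, 95% interval -0.71 to 0.44), as did Il15 (-0.12, -0.58 to 0.35), Ebi3 (0.15, -0.24 to 0.53) and Il10 (0.38, -1.20 to 1.96). Il23a (0.55, -1.45 to 2.55) and Il18 (0.26, -0.19 to 0.70) were not called either.

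Because Il12b is higher in cDC1, the 8 cDC1 markers were read in these cDC2 libraries. Their sum was 238 and 211 CPM with the mutation, against 227 and 204 CPM without it, with none of the 8 at 0. Irf8 (133 ± 18.9 against 115 ± 15.9 CPM) and Batf3 (47.1 ± 1.67 against 49.2 ± 1.21 CPM) made up most of both sums. Of the 8, edgeR called 0, 5 had an unadjusted p under 0.05, and DESeq2 called 1 higher and 1 lower. Xcr1, a defining receptor of cDC1, was at 6.21 ± 0.0845 CPM in mutant cDC2 against 3.59 ± 0.25 CPM in wild type, and at 694 ± 8.73 CPM in wild-type cDC1. Clec9a, Itgae and Tlr3 were lower in the mutant's cDC2, at 8.05, 1.23 and 1.23 CPM against 10.7, 1.93 and 2.68 CPM, without passing edgeR's test. Lower too were Cadm1 (12.8 ± 0.364 against 17.2 ± 1.94 CPM) and Cd8a (14.9 ± 1.06 against 15.5 ± 0.384 CPM). The median log2 fold change of the 8 was -0.24, against 0.01 over all tested genes. Genes of dendritic cell maturation summed over 12 genes to 7291 and 7244 CPM, against 7294 and 6681 CPM in wild type. Of these 12, edgeR called 0, 2 had an unadjusted p under 0.05 and DESeq2 called 1 higher. Among them Cd86, a costimulatory ligand that was also higher in cDC1 and is named here after its values were seen, was at 361 ± 106 CPM against 181 ± 1.74 CPM (log2 fold change 1.0, SE 0.184, edgeR adjusted p = 0.199). Immediate-early genes summed over 18 genes to 20192 and 23518 against 31185 and 29551 CPM. Neutrophil markers summed over 8 genes to 94.9 and 47.8 CPM, against 30.0 and 38.5 CPM in wild type, 7 or 8 of which had a count. Mmp9, most of the wild-type sum, was lower in the mutant (15.6 ± 6.55 against 26.6 ± 4.09 CPM), as was Mmp8 (0.252 ± 0.242 against 0.366 ± 0.235 CPM). Higher were S100a8 (6.93 ± 2.72 against 0.684 ± 0.865 CPM), S100a9 (8.08 ± 4.57 against 1.22 ± 1.73 CPM), Camp (4.43 ± 3.26 against 0.418 ± 0.539 CPM) and Ngp (35.6 ± 28.9 against 4.88 ± 6.85 CPM). None of these was called by edgeR. Summed over the 8 cDC2 markers, the level was lower without overlap, at 2109 and 2219 against 2511 and 2423 CPM. Itgam alone went the other way (46.8 ± 0.201 against 40.7 ± 2.24 CPM). The sum of 8 B cell markers was also lower without overlap, at 361 and 293 against 474 and 556 CPM. Most of it was Ighm (303 ± 52.9 against 485 ± 55.6 CPM), while Ms4a1, Cd79a and Pax5 were higher. Of either list edgeR called 0. Erythroid and platelet markers (6 genes) were at 58.3 and 3.73 against 7.36 and 10.1 CPM, high in mutant replicate 2. The part of these gene groups in the Il12b level was not tested.

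The Zeb2 mutant was set against wild type within cDC1 to ask the same of the Zeb2 enhancer, and no member passed the test. All 9 fitted differences lay below 0, with a median log2 fold change of -0.44 against -0.03 over all tested genes. This rests in part on wild-type cDC1 replicate 2: without it, 6 of 9 were below 0 and the median was -0.14. edgeR called 0 of 9 members, against 0.0679% of all tested genes (0.0145% higher and 0.0533% lower), with 1 at an unadjusted p under 0.05 (Ebi3) and 0 called by DESeq2. Libraries did not overlap for 4 members below wild type (19.8% of all genes) and for 0 above (19.2%).

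Ebi3 was at 13.7 and 16.1 CPM against 24.2 and 21.7 CPM in wild type, 1.54-fold lower without overlap (log2 fold change -0.62, SE 0.173, 95% interval -1.01 to -0.24, edgeR adjusted p = 0.285). Il12b, at 441 and 482 CPM against 624 and 443 CPM, overlapped, with a log2 fold change of -0.21 (95% interval -0.57 to 0.16). For Il1b the values were 1032 and 1189.9 against 1991 and 1019 CPM, and the log2 fold change was -0.44 (SE 0.260, edgeR adjusted p = 0.591). It was 0.12 without wild-type cDC1 replicate 2 and -0.84 without replicate 3, where it passed (edgeR adjusted p = 0.0178). The direction for Il1b therefore turned on which wild-type library was kept. Il15 was at 23.1 and 22.3 against 31.5 and 25.1 CPM (-0.32, 95% interval -0.77 to 0.13). The intervals of Il18 (-0.77 to 0.11), Il6 (-0.97 to 0.67), Il27 (-2.03 to 0.64), Il10 (-2.57 to 0.56) and Il23a (-4.72 to 0.33) included 0 as well.

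Immediate-early genes summed to 13219 and 13112 CPM in Zeb2 mutant cDC1 and to 18385 and 18472 CPM in wild-type cDC1, with a median log2 fold change of -0.49 over 18 genes and 0 called by edgeR (11 at an unadjusted p under 0.05, and 7 called lower by DESeq2). Maturation genes summed to 3695 and 4134 CPM against 5646 and 4191 CPM, with 0 of 12 called by edgeR, 6 at an unadjusted p under 0.05 and 1 called lower by DESeq2. Neutrophil markers went the other way, 57.9 and 83.5 CPM against 9.83 and 0.752 CPM, and T cell markers were at 87.6 and 73.6 against 64.8 and 61.8 CPM. In this comparison the log2 fold changes of genes also followed gene length (Spearman's rho 0.48 over 8398 genes, which are not independent). With that trend removed the median log2 fold change of the members was -0.309, against -0.026 over all tested genes, and that of Ebi3 was -0.52. As in the main fit, no member was called. The part of these gene groups in the interleukin levels was not tested.

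Whether the 2 genotype effects differed was tested directly, as the effect of the Zeb2 genotype in cDC1 minus that of the Irf8 genotype in cDC2, a contrast that also holds the difference of cell type. No member passed (0 of 9, against 0.0194% of all tested genes, with 2 at an unadjusted p under 0.05 and 1 called by DESeq2). For Il12b the difference of effects was -1.495 on the log2 scale (SE 0.233, 95% interval -2.01 to -0.98, edgeR adjusted p = 0.133), at rank 11 of 20631 genes by p. DESeq2 gave it an adjusted p of 8.37e-06, and it passed in 3 of 13 alternative analyses. With 1 library left out, edgeR's adjusted p was 0.00408 without wild-type cDC1 replicate 3 and 0.0535 to 0.715 without any other (0.715 without Zeb2 mutant replicate 2), at log2 values from -1.72 to -1.23. Since Il12b differed between the cell types by 3.14 in wild type and 1.65 in the mutants on the log2 scale, this is the same quantity as the narrowing of that gap. For Ebi3 the difference was -0.77 (95% interval -1.31 to -0.23, edgeR adjusted p = 0.484).

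**Figure D3:**
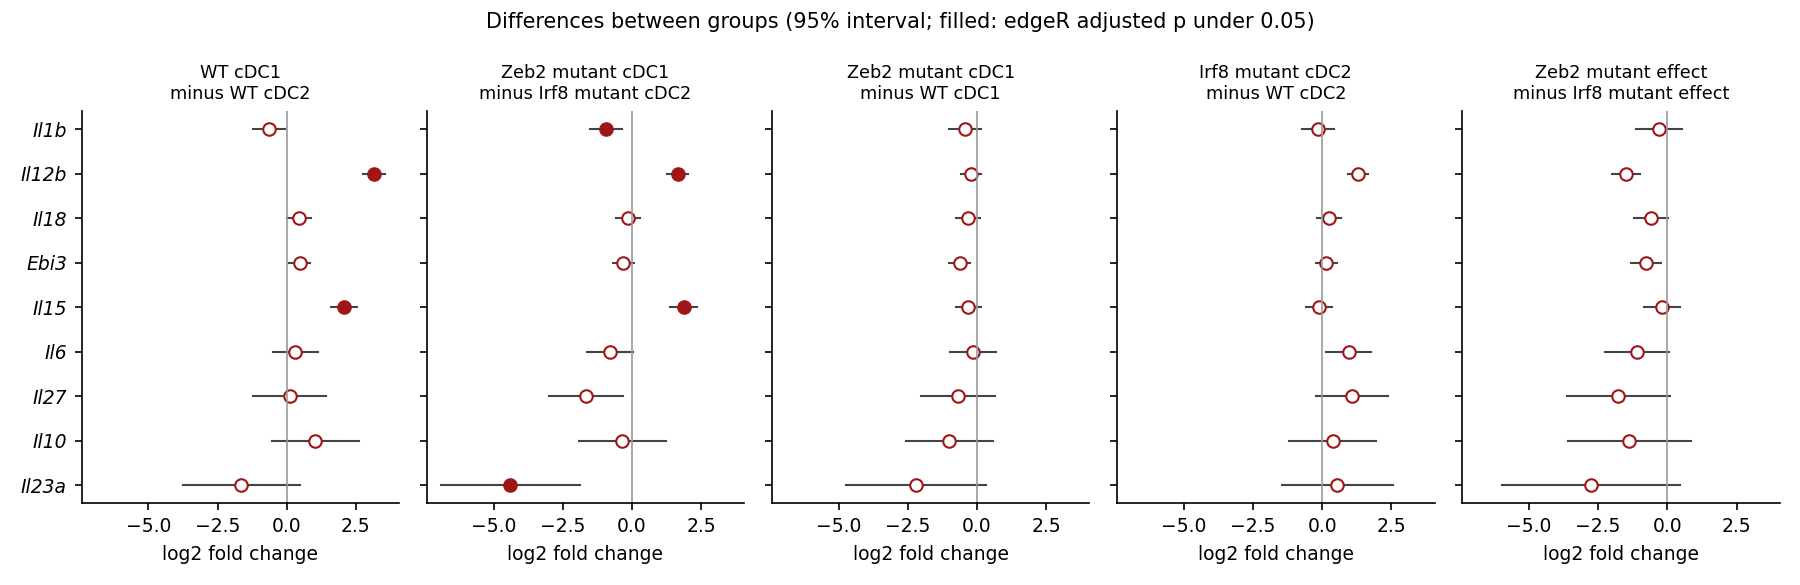
Log2 fold changes of the 9 tested interleukins in the 5 comparisons, with 95% intervals from edgeR; filled points have an adjusted p under 0.05. Il12b and Il15 are called in both cDC1 against cDC2 panels, and in the Irf8 mutant panel Il12b is the member whose interval lies furthest from 0 (0.92 to 1.66) without a call.

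The balance between the most abundant members was also read within single libraries. It uses the same Il1b and Il12b counts as the differences above, so it adds no separate support for them. Per kilobase, Il1b exceeded Il12b 3.29-fold and 2.37-fold in the wild-type cDC1 libraries and 2.41-fold and 2.54-fold in Zeb2 mutant cDC1. In wild-type cDC2 the ratio was 44.9 and 35.3, and in Irf8 mutant cDC2 it was 12.5 and 17.3. The ratio in the Irf8 mutant thus lay between the cell types of wild type, without overlap with either. Ebi3 exceeded Il27 25.9-fold and 21.2-fold in wild-type cDC1, 15.0-fold and 55.4-fold in Zeb2 mutant cDC1, 15.2-fold and 23.5-fold in wild-type cDC2 and 7.80-fold and 13.3-fold in Irf8 mutant cDC2. Il27 had 14 to 116 counts in a library, and the ratio was most unlike between the Zeb2 mutant libraries, which had 47 and 14.

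Of 18 receptors and binding proteins of these interleukins, 1 was called higher in wild-type cDC1 (14.2% of all tested genes) and 9 lower (15.9%), with a median log2 fold change of -0.55 against 0.03 over all tested genes. Il15ra, the chain that presents IL-15 to other cells, was the gene higher in cDC1, at 20.2 ± 1.88 against 7.37 ± 1.53 CPM (log2 fold change 1.45), the direction of Il15 itself. The largest differences the other way were in inhibitors of IL-1 and the common gamma chain: Il1rn, the receptor antagonist, at 1.39 ± 0.812 against 54.6 ± 0.222 CPM (-5.29), Il1r2, the decoy receptor, at 38.5 ± 23.3 against 872 ± 44.9 CPM (-4.50), and Il2rg at 36.3 ± 3.64 against 259.8 ± 19.5 CPM (-2.84). In the mutant pair, where 12.8% of all tested genes were called higher in cDC1 and 15.0% lower, 3 were higher (Il15ra, Il1rap, Il2rb) and 6 lower (Il12rb2, Il6st, Il1r2, Il1rn, Il2rg, Il18bp), with a median of -0.56 against -0.02 over all.

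The next list held 11 genes around the maturation of IL-1 beta and IL-18. Of these, 1 was called higher in wild-type cDC1 and 8 lower, against 14.2% and 15.9% of all tested genes. The median log2 fold change was -0.75, against 0.03 over all. Nlrp1b, an inflammasome sensor, was the higher one (18.6 ± 4.86 against 9.29 ± 1.24 CPM). Lower were the sensors Nlrc4 (2.37 ± 0.931 against 27.7 ± 3.81 CPM), Nlrp3 (60.5 ± 10.5 against 262 ± 1.54 CPM) and Mefv, which encodes pyrin (77.8 ± 8.28 against 191 ± 13.7 CPM). In the mutant pair 0 were called higher and 7 lower in cDC1, against 12.8% and 15.0% of all tested genes (median -0.95, against -0.02 over all): Casp1, Casp4, Nlrp3, Nlrc4, Aim2, Gsdmd and Mefv.

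Of 17 transcription factors known to act on promoters of these interleukins, 3 were called higher in wild-type cDC1 and 10 lower, with 14.2% and 15.9% over all tested genes (median log2 fold change -0.79, against 0.03 over all). Irf8 (3449 ± 267 against 115 ± 15.9 CPM), Batf3 (101 ± 2.39 against 49.2 ± 1.21 CPM) and Irf5 (615 ± 6.61 against 404 ± 0.042 CPM) were higher. Irf4 (11.8 ± 0.572 against 482 ± 16.4 CPM), Bhlhe40 (142 ± 45.9 against 1554 ± 34.5 CPM), a repressor of Il10 in T cells, and Cebpb (5.13 ± 0.195 against 43.7 ± 3.50 CPM) were the largest differences the other way. In the mutant pair 3 were called higher (Irf5, Irf8, Batf3) and 12 lower (Rel, Rela, Nfkb1, Nfkb2, Relb, Irf4, Spi1, Cebpb, Nfil3, Hes1, Nfkbiz and Bhlhe40), with 12.8% and 15.0% over all tested genes and a median of -1.06 against -0.02.

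In neither genotype comparison did edgeR call a gene of these 3 lists. At an unadjusted p under 0.05 there were 5 receptors, 3 maturation genes and 8 transcription factors in the Zeb2 mutant, where DESeq2 called 1 factor higher and 1 lower, and 1 gene of each list in the Irf8 mutant, where DESeq2 called 0. Of 23 other interleukin genes, 20 were found by symbol and 7 tested. Il16, a chemoattractant made by leukocytes, was called higher in wild-type cDC1 than in wild-type cDC2 (86.7 ± 10.8 against 58.6 ± 3.53 CPM). It was also called higher in Zeb2 mutant cDC1 than in Irf8 mutant cDC2 (89.0 ± 7.36 against 38.3 ± 8.26 CPM). Il7, a survival factor for lymphocytes, was low and was called lower in Zeb2 mutant cDC1 than in Irf8 mutant cDC2 (0.203 ± 0.0529 against 0.863 ± 0.385 CPM). Against wild-type cDC1 it was not called (edgeR adjusted p = 0.538).

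**Figure D4:**
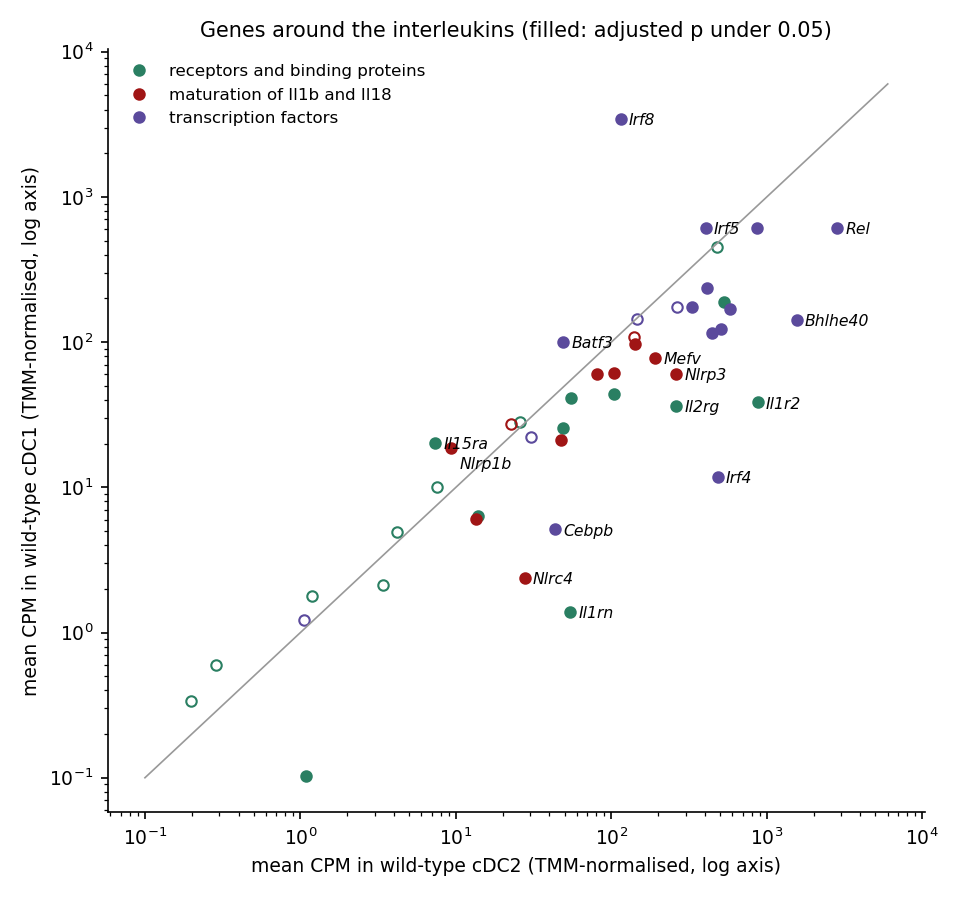
Mean TMM-normalised CPM in wild-type cDC1 (vertical) against wild-type cDC2 (horizontal), both on log axes, for receptors, maturation genes and transcription factors around the interleukins; filled points passed edgeR's test and the line marks equal levels. Most filled points lie below the line, higher in cDC2, while Irf8, Batf3, Irf5, Il15ra and Nlrp1b lie above it.

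Genes of dendritic cell maturation and immediate-early genes were compared in the same way. What set their levels was not tested. Of 12 maturation genes, 2 were called higher in wild-type cDC1 (Cd86 and Tnfrsf4, which encode a costimulatory ligand and the receptor OX40) and 5 lower, the largest being Pdcd1lg2, Cd274 and Cd80 (median log2 fold change -0.64, against 0.03 over all tested genes, of which 14.2% were called higher and 15.9% lower). Cd86 was at 521 ± 42.5 against 181 ± 1.74 CPM, Pdcd1lg2, a ligand of PD-1, at 0.850 ± 0.152 against 12.6 ± 1.80 CPM, and Cd274, another, at 39.9 ± 0.479 against 199.7 ± 7.57 CPM. In the mutant pair 0 were called higher and 8 lower in cDC1: Ccr7, Fscn1, Cd80, Ccl17, Cd83, Socs2, Cd274 and Pdcd1lg2 (median -1.36, against -0.02 over all tested genes, of which 12.8% were called higher and 15.0% lower). Of 18 immediate-early genes, 0 were called higher and 9 lower in wild-type cDC1, led by Tnfaip3, Fosb and Nfkbia, with a median of -0.57 against the same background. In the mutant pair, with a median of -0.73, 0 were higher and 12 lower: Fosb, Junb, Nr4a1, Nr4a2, Nr4a3, Dusp1, Dusp2, Ier2, Ier3, Zfp36, Nfkbia and Tnfaip3. In the Irf8 mutant no immediate-early gene was called by edgeR, with 9 at an unadjusted p under 0.05 and 6 called lower by DESeq2.

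For the members with a mean of at least 10 CPM, the genes whose pattern over the 8 libraries was most alike were found by Pearson's r of log2(CPM + 0.5) among 8031 genes. For Il12b these were Nucb2 (r = 0.993), Id2 (0.988), a factor that cDC1 depend on, and Pbk (0.986). Nucb2 was at 58.2 and 61.2 CPM in wild-type and Zeb2 mutant cDC1, and at 11.4 and 20.3 CPM in wild-type and Irf8 mutant cDC2. For Il15 they were Tpst1, Pgk1 and Dynlt1a (each 0.995), for Il1b Btg1 (0.990), H3f3a (0.983) and the maturation marker Cd83 (0.983), for Ebi3 Eif6 (0.974), Pard6a (0.949) and Commd4 (0.934), and for Il18 Rabggtb (0.969), Dstn (0.964) and Lyar (0.951). The 8 libraries form 2 cell types, which any gene that differs between them shares, so these values describe the libraries and carry no test.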

How the data were processed

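RNA of 100000 sorted splenic cells per sample was isolated with a column kit, 10 ng (RIN over 8.0) was amplified with the SMARTer Ultra Low kit, and libraries were read as pairs of 150 bases, per the labels' protocols. The submitters' processing notes name STAR, bcl2fastq, Salmon and Subread's featureCounts, and mm10 (GRCm38) as the build. How strand and reads shared by several genes were handled is not given there. Counts as deposited are whole reads of a gene, per the file headers. In the deposited CPM column a value is the count over the library's total, and the deposited FPKM is that CPM per kilobase of exon, both checked on the values. Symbols came from GENCODE M21 (55227 of 55487 IDs).

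The counts went into edgeR 4.0.16 under R 4.3.3 (filterByExpr, TMM, robust quasi-likelihood, 1 coefficient per group over 8 libraries, 4 residual degrees of freedom), with Benjamini-Hochberg adjustment over 20631 genes. Folds are ratios of mean CPM, and intervals are at 95%. DESeq2 1.42.0, RLE scaling, no filter, the compared groups alone, a replicate block, removal of the length trend and leaving out each library were alternatives. The model was tested on simulated data. Members and gene lists were chosen with earlier results of these data known, and 1 monocyte marker is not reported here. From each list, the wild-type comparison names up to 3 called genes per direction with the largest change (5 CPM or more in the higher group), and the other comparisons name every called gene. What a replicate stands for is not given, so p-values cover only the spread of these samples, which may be technical.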

Additional observations from a re-analysis of the deposited data

How the results depend on the processing

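Of 619 log2 fold changes of single members under an alternative, 576 kept their direction and side of the threshold, 22 gained a call, 6 lost it and 15 changed sign. Il12b and Il15 kept their calls between cell types in both pairs under every alternative run. In wild type, 1 member (Il1b) was lower with no filter, with the length trend removed and by DESeq2, and leaving out 1 library gave 0 to 1 lower and 3800 to 6894 genes called. In the Zeb2 mutant, edgeR called 14 genes, against 477 with no filter, 7 with only the groups compared and 305 by DESeq2, and 0 to 1035 with 1 library left out (1035 without wild-type cDC1 replicate 3), with 0 to 1 members lower. In the Irf8 mutant, where 0 genes were called and 1313 had an unadjusted p under 0.05, 1 member (Il12b) was higher with RLE factors, no filter, only the groups compared, the length trend removed and DESeq2, and 7, 199, 7, 2 and 151 genes were called in that order. Leaving out 1 library gave 0 to 1 members and 0 to 15 genes. In the mutant pair 0 to 2 members were lower with 1 library left out. For the difference of effects, 1 member (Il12b) passed with no filter and by DESeq2, and 306 and 162 genes were called, against 4; 1 library left out gave 0 to 1 members and 0 to 530 genes. The causes were not tested.

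Sign changes were of members that were not called. In wild type, Il27 was -0.25 with the length trend removed and ran from -0.19 to 0.52 with 1 library left out, and Il6 from -0.29 to 0.74. In the Zeb2 mutant, with 1 library left out, Il12b ran from -0.43 to 0.06, Il6 from -0.58 to 0.46, Il1b from -0.84 to 0.12 and Il23a from -3.11 to 0.95; the highest values are without wild-type cDC1 replicate 2, for Il23a without replicate 3. In the Irf8 mutant, Il10 ran from -0.30 to 1.56, Il15 from -0.29 to 0.050 and Il1b from -0.33 to 0.038. Il10 ran from -0.73 to 0.18 in the mutant pair. In the difference of effects, Il23a ran from -3.66 to 0.41 and Il1b from -0.71 to 0.26. With the FPKM values, 39 of 40 group levels moved by less than 1 SD.

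The labels do not say that a replicate number pairs samples. The correlation of replicate differences between groups was -0.224 to 0.124 over 8398 genes. With the replicate number as a block, Il27 was also called lower in the mutant pair (log2 fold change -1.72, edgeR adjusted p = 0.0434), Il12b in the Irf8 mutant had an adjusted p of 0.13, and 1 gene was called for the difference of effects. Counts limit Il12a, Il23a, Il10 and Il27, and 2 libraries a group limit all of these results.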
